A study of Homo sapiens with 6 samples.

Results

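Cholesterol and fatty acids are made from acetyl-CoA in the cytosol and endoplasmic reticulum, and both routes are controlled by the SREBP transcription factors. SREBPs are made as membrane proteins held by SCAP, which senses cholesterol, and by INSIG proteins, which keep the complex in the endoplasmic reticulum while sterol is plentiful. When sterol falls, SCAP escorts SREBP to the Golgi, where proteases release the active factor, and SREBP then binds promoters of the sterol and fatty acid genes, usually beside the factor NF-Y. Dividing leukemia cells need both products for new membrane.

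The levels of 29 genes of these routes were examined in HEL cells. They were chosen by name, and each of them matched exactly 1 of the 31999 rows of the deposited expression table. They comprise 18 enzymes of the sterol pathway, 4 regulators of SREBP and 7 enzymes of fatty acid synthesis, elongation and desaturation, and they do not cover every step of either route. HEL is an established human erythroleukemia line. In the experiment, poly(A) RNA was sequenced from HEL cells transduced with a lentiviral hairpin against TMIGD2 (shTMIGD2, 3 libraries) or with a non-targeting hairpin (shCtrl, 3 libraries), so that the 2 groups share the vector and the puromycin selection the study's methods describe. The labels call the libraries of each group biological replicates and do not number the hairpin used.

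The table holds 1 mean level per gene over the 6 libraries, as log2 CPM, the count scaled to the library total, beside columns of the authors' own comparison of shTMIGD2 with shCtrl. Those comparison columns were not used, and no value per library was analysed here. The values below are therefore levels of the genes in HEL cells averaged over both hairpins. They say nothing of the effect of TMIGD2 knockdown, they have no spread between replicates, and the depth behind them is unknown from this table. TMIGD2 itself had a mean of 16.9 CPM, which cannot check the labels because it is not split by group. The lowest mean in the table, 0.0736 CPM, was shared by 154 genes and marks the floor of the measure. All 7 markers of HEL cells were well above it, from EPOR at 45.8 CPM to the transferrin receptor TFRC at 2175 CPM, with GATA1 at 250.8 CPM. Of 9 markers of T cells, B cells, hepatocytes, fibroblasts and epithelium, 4 had no row and the other 5 lay between 0.0737 and 0.574 CPM.

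Because long transcripts collect more fragments, levels were ranked and compared per length. CPM without length is given for overlapping genes and copies that could share fragments, for markers and for some other genes, mainly those under 1 CPM. Each mean CPM was divided by the length in kilobases of the gene's reference transcript (MANE Select in GENCODE 44, found for all 29 genes), and the result was placed among 11492 protein-coding genes with a mean of at least 1 CPM, called expressed genes here. Their median was 9.50 CPM per kilobase and their 75th percentile 25.4 CPM per kilobase. All 29 genes were expressed by this measure, against 69.0% of the 16660 protein-coding genes with a row. Of the 29 genes, 27 had 10 CPM or more before the length correction. The share of expressed genes at this cut was not computed, but their median, 5.06 in log2 CPM, lies above it. The 29 genes had a median of 28.7 CPM per kilobase. Of them, 24 lay at or above the median of expressed genes, 15 at or above the 75th percentile and 6 at or above the 90th. Together they took 0.487% of the summed CPM of the table.

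Among the 3 groups, the fatty acid enzymes had the highest median, 72.6 CPM per kilobase over 7 genes. The 4 regulators followed with 35.8 and the 18 sterol enzymes with 20.5 CPM per kilobase. The groups overlapped in level. The sterol enzymes ranged over 6.94 on the log2 scale, the fatty acid enzymes over 3.79 and the regulators over 1.28. The low end of the sterol range is CYP51A1 alone, at -0.07, a value called uncertain below. The next lowest sterol enzyme, MVK, was at 2.46. The groups also differ in size, so their ranges are not like measures of spread. The order of neighbouring genes cannot be set against an error, since the table gives none.

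**Figure D1:**
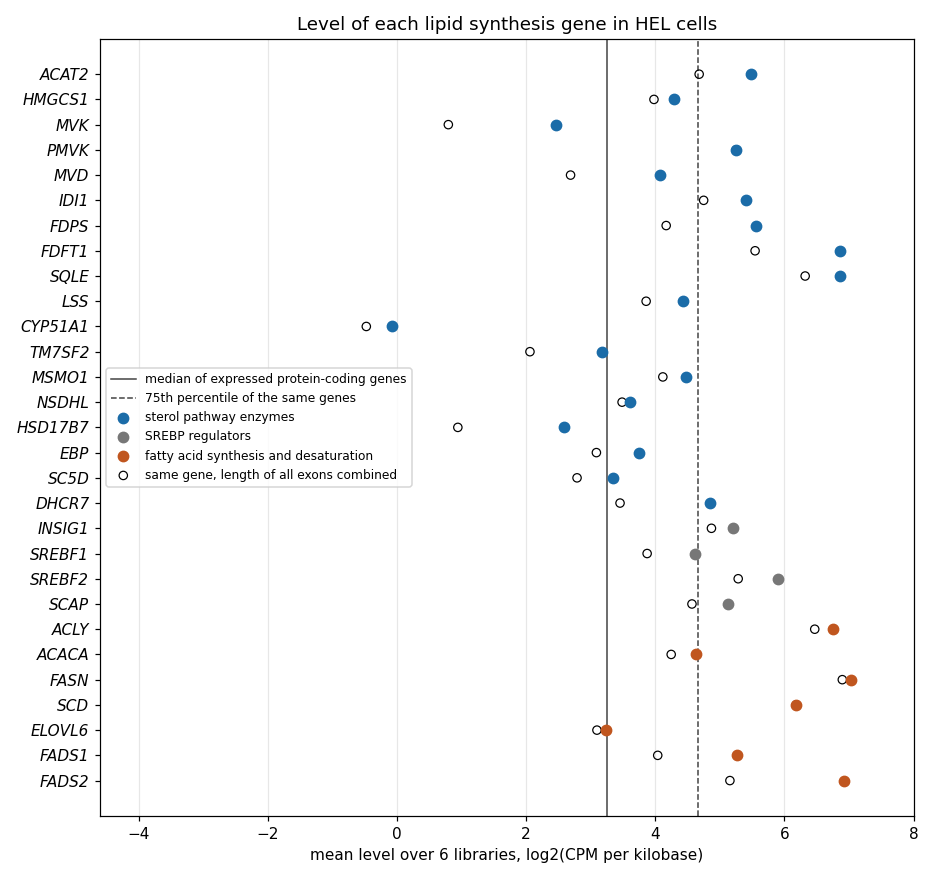
Mean level of the 29 genes over the 6 libraries, in log2(CPM per kilobase), with the genes in pathway order. Filled points use the reference transcript's length and open circles the length of all annotated exons combined, and the vertical lines mark the median (3.25) and the 75th percentile (4.67) of expressed protein-coding genes for the reference length. FASN lies highest at 7.03 and CYP51A1 lowest at -0.07.

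The first part of the sterol pathway builds the isoprenoid units. ACAT2, the cytosolic thiolase that joins 2 molecules of acetyl-CoA, had a level of 44.5 CPM per kilobase, at percentile 85.4 of expressed genes. HMGCS1, which adds the next acetyl-CoA, was at 19.5. Both values carry a limit of annotation. TCP1, on the opposite strand, shares 29.9% of the bases of the ACAT2 transcript and had 719.3 CPM, and a long noncoding RNA on the opposite strand shares 46.7% of HMGCS1. The library kit keeps strand, but whether the counting used it is not given in the sources used here.

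The 3 enzymes that turn mevalonate into isopentenyl diphosphate differed. MVK, the mevalonate kinase, was at 5.52 CPM per kilobase, at percentile 36.9. PMVK, which adds the next phosphate, was at 38.1, and MVD, which decarboxylates the product, at 16.9 CPM per kilobase. MVK was thus the lowest of these steps, with MVD 3.06-fold above it per kilobase. The direction between MVD and MVK was the same with each of the 4 lengths tried.

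IDI1, the isomerase that gives dimethylallyl diphosphate, was at 42.1 CPM per kilobase. Its relative IDI2 was at 0.0698 CPM per kilobase, or 0.0947 CPM, close to the table's floor. FDPS, which makes farnesyl diphosphate and is the target of nitrogen-containing bisphosphonates, was at 47.2 CPM per kilobase. RUSC1-AS1, on the opposite strand, shares 41.4% of the FDPS transcript and had 2.15 CPM. Since the use of strand in counting is not given, the FDPS value carries the same limit as those of ACAT2 and HMGCS1.

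The enzymes that commit carbon to sterol were the highest of the pathway. FDFT1, the squalene synthase, had a level of 116.5 CPM per kilobase and SQLE, the squalene epoxidase, one of 116.1. They stood at percentiles 95.0 and 94.9 of expressed genes, and were the only sterol enzymes at or above the 90th. LSS, which closes the sterol ring from the product of SQLE, was at 21.5 CPM per kilobase, so that SQLE was 5.41-fold above it.

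The enzymes that follow the first sterol, lanosterol, were all below FDFT1 and SQLE, though DHCR7 and MSMO1 were above LSS. CYP51A1, the 14-alpha demethylase (chromosome 7, 92084987 to 92134803), had the lowest level of all 29 genes, 3.00 CPM or 0.950 CPM per kilobase, at percentile 9.72 of expressed genes and 122.2-fold below SQLE. It was also the gene with the largest same-strand overlap. In GENCODE 44, exons of 2 other protein-coding genes cover 90.1% of its reference transcript, and neither has a row in the table under its identifier. Whether the refSeq annotation used for counting held them is not given in the sources used here. LRRD1, the neighbouring gene, was listed at 0.0842 CPM. How fragments shared by overlapping genes were counted is not given in the sources used here, and the part of the overlap in this value was not tested. Its pseudogenes CYP51A1P2 and CYP51A1P1 were listed at 0.568 and 0.432 CPM, together 33.4% of the CPM of CYP51A1, and copies can share fragments, so the value is uncertain on this count too.

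The 7 enzymes that come next ran from 6.01 to 28.7 CPM per kilobase. TM7SF2, a C14 sterol reductase, was at 8.99 CPM per kilobase. LBR, the lamin B receptor, which has the same reductase activity, was at 57.4 CPM per kilobase, 6.38-fold above TM7SF2 and up to 10.3-fold with another length. MSMO1, the C4 methyl oxidase, was at 22.2, and NSDHL, which works with it in removing the C4 methyl groups, at 12.2 CPM per kilobase.

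HSD17B7, the ketoreductase of the same complex, was at 6.01 CPM per kilobase, the lowest sterol enzyme after CYP51A1 and MVK with the reference length. Its pseudogenes HSD17B7P2 and HSD17B7P1 were at 1.29 and 0.0776 CPM per kilobase. Together they had 15.3% of the CPM of HSD17B7, whose value is uncertain because copies can share fragments. EBP, the sterol isomerase, was at 13.4 CPM per kilobase, SC5D, the C5 desaturase, at 10.1, and DHCR7, which makes cholesterol from 7-dehydrocholesterol, at 28.7. A protein-coding read-through gene on the same strand shares 57.1% of the EBP transcript and has no row under its identifier, so the value of EBP is uncertain as well.

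Among the regulators, SREBF2 (chromosome 22, 41833105 to 41907306), which encodes the SREBP that mainly serves cholesterol synthesis, was at 59.9 CPM per kilobase, at percentile 89.2. SREBF1, whose SREBP mainly serves fatty acid synthesis, was at 24.6, so that SREBF2 was 2.43-fold higher. This ratio lay between 2.24 and 2.66 with the 4 lengths tried. SCAP was at 35.0 CPM per kilobase. INSIG1 was at 36.7 and its relative INSIG2 at 3.53 CPM per kilobase, a difference of 10.4-fold that fell to 6.89-fold with another length. The site-1 and site-2 proteases that release SREBP, MBTPS1 and MBTPS2, were at 15.4 and 3.06 CPM per kilobase.

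In fatty acid synthesis, FASN (chromosome 17, 82078338 to 82098294), the synthase that builds palmitate, had the highest level of the 29 genes, 131.1 CPM per kilobase or 1110 CPM. It stood at rank 496 of the 11492 expressed genes. ACLY, which makes cytosolic acetyl-CoA from citrate, was at 107.4 CPM per kilobase. ACSS2, which makes it from acetate, was 6.62-fold lower at 16.2. ACACA, the acetyl-CoA carboxylase whose malonyl-CoA feeds the synthase, was at 24.7 CPM per kilobase, 5.32-fold below FASN. ACACB, the form of the carboxylase tied to mitochondria, was at 3.76 CPM per kilobase, 6.57-fold below ACACA.

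The enzymes that modify the finished chain were spread widely. SCD, the delta-9 desaturase that makes oleate, was at 72.6 CPM per kilobase, against 1.93 for SCD5, a difference of 37.7-fold, and of up to 59.7-fold with another length. FADS2, the delta-6 desaturase of polyunsaturated fatty acid synthesis, was at 121.6 CPM per kilobase, and FADS1, the delta-5 desaturase, at 38.5. These neighbours on chromosome 11 lie on opposite strands and their annotated spans overlap, but their transcripts share under 5% of their bases. FADS2 was 3.16-fold above FADS1, and the ratio was between 1.93 and 3.16 with the 4 lengths tried. FADS3, the third gene of that cluster, was at 13.3 CPM per kilobase. ELOVL6, which elongates palmitate to stearate, was at 9.46 CPM per kilobase with the reference length, the lowest fatty acid enzyme and just under the median of expressed genes. This place depends on the length: with the coding length ELOVL6 stood 1.82 above that median on the log2 scale and ACACA 0.64 above it. ELOVL1, which elongates longer chains, was 9.37-fold above ELOVL6 with the reference length and at least 1.99-fold above it over the 4 lengths. ELOVL5, which elongates polyunsaturated chains, was 9.49-fold above it and at least 3.54-fold.

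**Figure D2:**
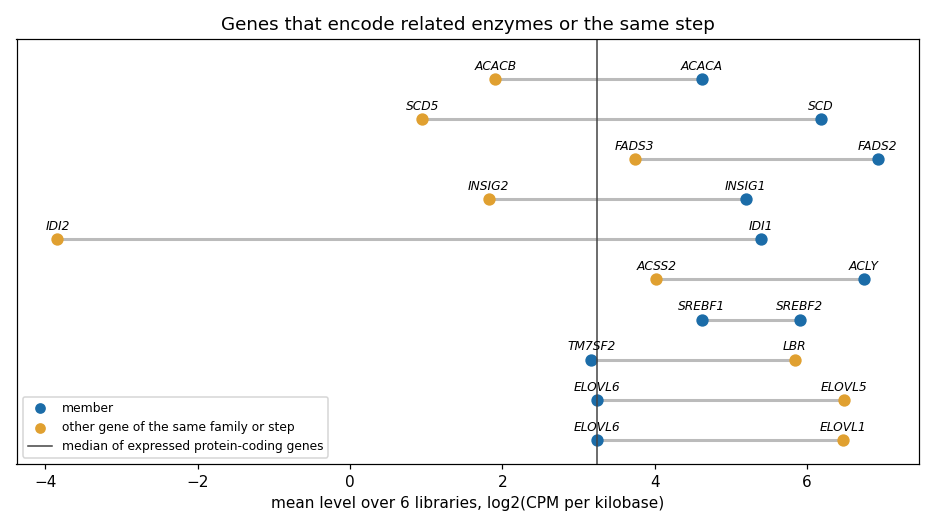
Mean levels over the 6 libraries, in log2(CPM per kilobase), of genes that encode related enzymes or the same step, joined by a line; blue points are among the 29 genes and yellow points are not. The members ACACA, SCD, FADS2, INSIG1, IDI1 and ACLY lie to the right of their relatives, while TM7SF2 (8.99 CPM per kilobase) and ELOVL6 (9.46) lie to the left of theirs.

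Set against expressed genes, the sterol enzymes ran from percentile 9.72 (CYP51A1) to percentile 95.0 (FDFT1). Of the 18 sterol enzymes, 7 reached the 75th percentile and 4 lay under the median, namely MVK, CYP51A1, TM7SF2 and HSD17B7. Of the 7 fatty acid enzymes 5 reached the 75th percentile, and of the 4 regulators 3 did. SREBF1 and ACACA missed it narrowly, each at percentile 74.3. With no length correction the count at or above the 75th percentile was also 15 of 29.

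**Figure D3:**
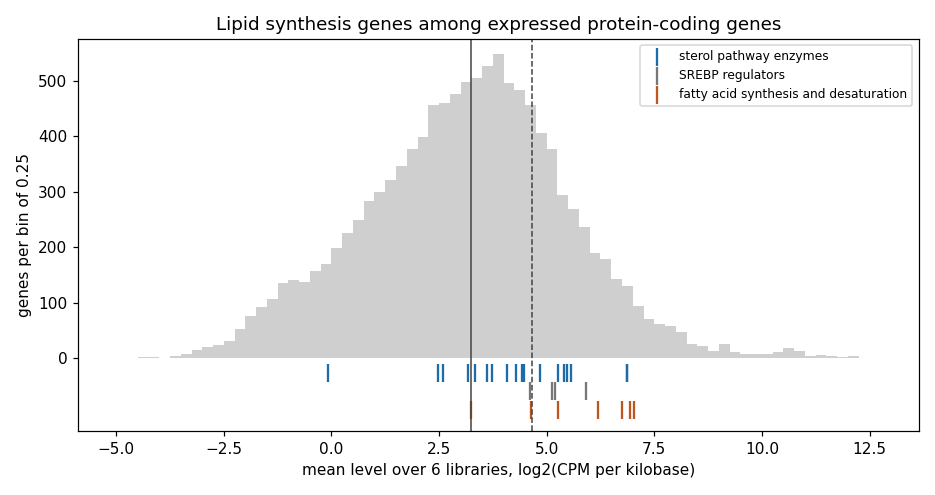
Distribution of the mean level of 11492 expressed protein-coding genes, in log2(CPM per kilobase), with the number of genes per bin on the vertical axis; ticks under the histogram mark the 29 genes by group, and the solid and dashed lines are the median and the 75th percentile. Only CYP51A1 lies far to the left, at -0.07, and the highest ticks, near 7, belong to FASN, FADS2, FDFT1 and SQLE.

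The genes lie on 15 chromosomes, with ACLY, ACACA, FASN and SREBF1 on chromosome 17. For 8 of them a protein-coding gene on the opposite strand starts within 1000 bases of their own start, a share of 27.6% against 18.5% of expressed genes. A start was taken here as the outer 5′ end of the annotated span. For ACLY, DHCR7 and FADS2 this end lies over 1000 bases from every RefSeq promoter window used below. The count was not repeated with RefSeq starts. MVK has such a neighbour in MMAB, 325 bases away, a gene of cobalamin metabolism that was at 2.85 on the log2(CPM per kilobase) scale beside 2.46 for MVK. ACACA and TADA2A start 50 bases apart, with levels of 4.62 and 3.37 on the same scale. The annotated spans of ACLY, at 6.75, and ODAD4, at -0.69, begin 75 bases apart. The RefSeq promoter windows of ACLY lie elsewhere, so this pair cannot show whether a shared start region goes with like levels. These 3 pairs were picked after their values were seen.

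The promoters were then searched for the letters that SREBP and its partners are known to bind. RefSeq windows from 250 bases before to 50 bases after the start site (GRCh38.p14) matched 25 of the 29 genes. ACAT2, FDFT1, SQLE and FASN were without one. The SREBP element was written as TCACNCCAC, on either strand. It was found in 1 of the 25 genes (4.0%), SREBF2, against 1.39% of 27305 genes and 1.42% of 9279 expressed genes with a window. The E-box form TCACNTGA was found in INSIG1 and EBP, 2 of 25 (8.0%), against 5.59% of expressed genes. The match in EBP reads TCAGGTGA, and the EBP window holds no CACGTG. These are exact strings, and elements that differ by a base are not counted.

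The 3 promoters with a match are shown for the 250 bases before the start site, 5′ to 3′, with the match in capitals. The match starts 133 bases before the start site in SREBF2, 56 in INSIG1 and 127 in EBP.
SREBF2 (chr22:41832855-41833104, hg38, plus strand): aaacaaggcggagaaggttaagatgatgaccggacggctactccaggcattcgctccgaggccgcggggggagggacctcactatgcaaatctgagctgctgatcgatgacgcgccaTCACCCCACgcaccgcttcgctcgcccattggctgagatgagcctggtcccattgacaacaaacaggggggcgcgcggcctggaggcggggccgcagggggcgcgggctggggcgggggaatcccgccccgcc
INSIG1 (chr7:155297628-155297877, hg38, plus strand): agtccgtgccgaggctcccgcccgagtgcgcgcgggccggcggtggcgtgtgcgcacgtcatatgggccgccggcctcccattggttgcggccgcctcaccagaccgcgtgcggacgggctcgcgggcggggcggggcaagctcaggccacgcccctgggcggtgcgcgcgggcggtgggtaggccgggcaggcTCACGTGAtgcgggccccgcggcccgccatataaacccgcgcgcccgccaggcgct
EBP (chrX:48521558-48521807, hg38, plus strand): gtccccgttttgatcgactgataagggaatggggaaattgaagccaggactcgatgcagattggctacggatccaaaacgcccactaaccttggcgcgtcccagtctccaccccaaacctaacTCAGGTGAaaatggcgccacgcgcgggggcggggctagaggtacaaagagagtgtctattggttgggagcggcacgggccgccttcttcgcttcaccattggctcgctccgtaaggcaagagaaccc

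Other motifs were chosen after this search. The CCAAT box, bound by NF-Y, was found on either strand in 19 of 25 genes (76.0%), against 43.8% of expressed genes and 39.7% of all genes with a window. Among the sterol enzymes it was in 13 of 15, with CYP51A1 and PMVK as the exceptions. A window held at least 3 copies in 7 of the 25 genes (28.0%), against 5.80% of expressed genes. The GC box GGGCGG, bound by SP1, was in 24 of 25 genes (96.0%) and in 77.3% of expressed genes. The palindromic E-box CACGTG was in 4 of 25 (16.0%), against 12.8% of expressed genes, and in INSIG1 it is part of the TCACNTGA match. Some genes have several windows, and such a gene is counted once if any of its windows holds the motif.

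MVK and NSDHL have the most CCAAT boxes in a single window, 5 each. Their promoters are shown for the same 250 bases with each CCAAT or its complement in capitals. In MVK the boxes start 210, 157, 94, 79 and 46 bases before the start site. In NSDHL they start 228, 138, 113, 110 and 84 bases before it, and the boxes at 113 and 110 overlap. The 2 genes differ in level, at 5.52 and 12.2 CPM per kilobase, and both lie below the median of the 29 genes.
MVK (chr12:109573544-109573793, hg38, plus strand): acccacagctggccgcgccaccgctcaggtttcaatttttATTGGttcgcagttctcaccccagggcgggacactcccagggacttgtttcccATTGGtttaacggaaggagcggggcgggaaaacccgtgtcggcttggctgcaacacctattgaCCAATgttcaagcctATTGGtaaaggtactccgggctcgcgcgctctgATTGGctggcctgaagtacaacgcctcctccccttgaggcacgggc
NSDHL (chrX:152830813-152831062, hg38, plus strand): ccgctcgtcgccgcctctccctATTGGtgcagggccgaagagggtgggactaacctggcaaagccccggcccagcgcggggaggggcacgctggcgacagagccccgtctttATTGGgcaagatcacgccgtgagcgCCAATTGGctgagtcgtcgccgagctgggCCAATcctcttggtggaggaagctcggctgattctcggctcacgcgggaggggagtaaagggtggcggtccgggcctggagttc

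**Figure D4:**
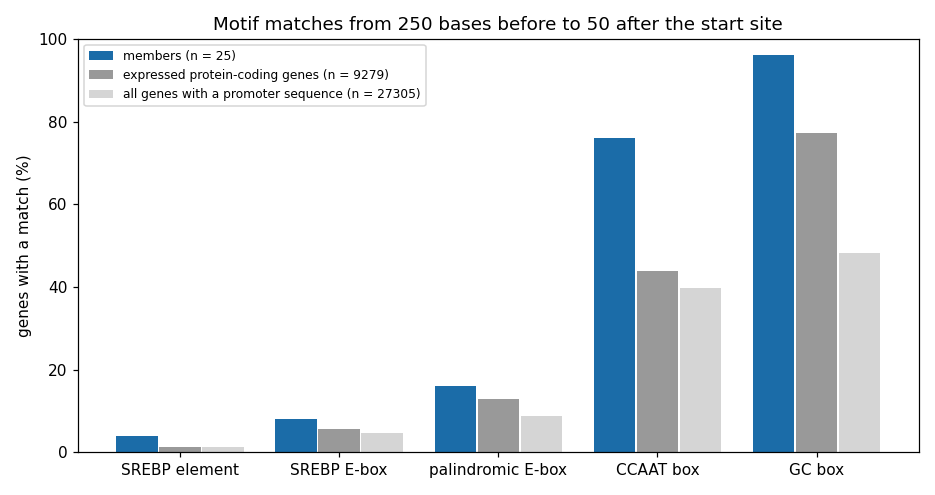
Share of genes, in percent, with at least 1 exact match to each motif from 250 bases before to 50 after the start site, on either strand, for the members, for expressed protein-coding genes and for all genes with a promoter sequence. The CCAAT box is in 76.0% of the members and 43.8% of expressed genes, while the SREBP element is in 4.0% and 1.42%.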

How the data were processed

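Poly(A) RNA libraries of HEL cells (3 shCtrl, 3 shTMIGD2, grouped by their titles) were aligned by the authors to hg38 with STAR 2.6.1b and counted per gene with HTSeq 0.6.1 on a refSeq annotation. The authors deposited 1 table of 31999 genes with a log2 mean CPM over the libraries, whose normalization factors and prior count are not given in the sources used here. Its 4 other columns hold the authors' log2 fold change, F statistic, p-value and adjusted p-value, and were not used. There are no counts per library, so the planned test of shTMIGD2 against shCtrl was not run and the depth per sample is unknown.

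Of the gene names, 22987 matched GENCODE 44 by symbol and 574 by a RefSeq synonym, and 24 that a spreadsheet had turned into dates were left unmatched. CPM was divided by the length of the MANE Select or canonical transcript. Percentiles were taken among protein-coding genes with a log2 CPM of 0 or more. Promoters were searched for exact strings on either strand. A median was counted as moved when it changed by over 1.5-fold, since no replicate spread exists. Python 3.11.15, numpy 2.4.6, pandas 2.3.3 and matplotlib 3.10.9 were used, after both computing steps had been checked on made-up data with known answers. All 29 genes are named, as are the highest and lowest genes of 6 wider lists and relatives of members. The genes and lists were chosen with earlier results of these data known.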

Additional observations from a re-analysis of the deposited data

How the results depend on the processing

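The choice of length moved the medians most. With the length of all annotated exons combined, the median log2(CPM per kilobase) was 3.67 for the sterol enzymes and 5.15 for the fatty acid enzymes, in place of 4.36 and 6.18. With the coding length it was 5.73 for the sterol enzymes, 7.13 for the fatty acid enzymes and 5.90 for the regulators, in place of 5.16 for the last. The median of expressed genes moved with them, from 3.25 to 2.56 and 4.47, as the lengths themselves shrink or grow. Over that median the sterol enzymes stood 1.11 above with either the reference or the combined exon length, 1.26 above with the coding length and 1.3 above with the longest transcript. The fatty acid enzymes stood between 2.6 and 3.13 above it, and the regulators between 1.43 and 2.16, over the 4 lengths. The longest transcript and a pseudocount of 1 moved no median by over 1.5-fold. In runs added after seeing the data, sterol enzymes over 50% covered on the same strand were left out, giving a median of 4.45. Leaving out those over 25% covered on the opposite strand instead gave 4.08. Neither moved the sterol median by over 1.5-fold, and the medians of the other groups were not tried this way. FASN was the highest of the 29 genes with 3 of the 4 lengths and SCD with the coding length, and CYP51A1 was the lowest with all 4. The count at or above the 75th percentile was 21 of 29 against all protein-coding genes with no filter on low values, and at its lowest 14 with the coding length. With the E-box form counted as well, 3 of 25 genes (12.0%) in place of 1 held a match, against 6.98% of expressed genes. With the shorter window of 150 bases the SREBP element was again in 1. Of 87 member levels over the median of expressed genes under another length, 62 moved by less than 1.5-fold and 25 by more. Counted by gene, 20 of the 29 moved by more with at least 1 other length, and 15 did with the coding length. No paired analysis was possible because the table has no values per library. The planned test between the hairpins, with DESeq2, with no filter on low counts or with each library left out, needs counts per library too and was not run. Depth and replicate error are unknown, so close levels cannot be ranked.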

Other observations

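Other genes of lipid metabolism were read from lists beside the 29 genes, again as means over the 6 libraries. Of 14 genes of chain elongation and desaturation, 10 were expressed, 3 were under 1 CPM and HACD4 had no row. TECR, the reductase that ends each round of elongation, was the highest at 134.7 CPM per kilobase, followed by ELOVL5 at 89.8 and ELOVL1 at 88.7. ELOVL2, ELOVL3 and ELOVL4, known mainly from liver, skin and retina, were at 0.573, 0.664 and 0.928 CPM. Among acyl-CoA synthetases, which activate fatty acids, ACSL4, which prefers arachidonate, was the highest at 83.7 CPM per kilobase, 3.30-fold above ACSL3. ACSL6 was listed at 0.132 CPM and ACSS3 had no row.

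Of the genes that supply carbon and reducing power, SLC25A1, the citrate carrier, was at 30.8 CPM per kilobase and MID1IP1, which helps acetyl-CoA carboxylase to polymerise, at 29.1. ME1, the cytosolic malic enzyme and a source of NADPH, was listed at 0.105 CPM, and THRSP, a relative of MID1IP1, at 0.0842 CPM. In sterol handling, 11 of 12 genes were expressed and 4 of 12 lay at or above the median of expressed genes. NR1H2, which encodes the sterol receptor LXR beta, was at 37.2 CPM per kilobase, 9.37-fold above NR1H3, which encodes LXR alpha. SOAT1, which esterifies cholesterol, was at 5.59 CPM per kilobase and SOAT2 at 0.117 CPM per kilobase, or 0.242 CPM. ABCA1 and ABCG1, which export cholesterol, were at 1.30 and 3.38 CPM per kilobase.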
